A study of Mus musculus with 9 samples.

Results

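MHC class II presentation genes were followed in mouse liver through 8 genes: H2-Aa, H2-Ab1, H2-Eb1, H2-DMa, H2-DMb1, Cd74, Ciita and Ctss. They were taken by symbol, as every probe set annotated to one of them, out of 18193 genes with a probe set of their own on the array. Of the 8 genes 7 have probe sets annotated to them alone, 15 in all. H2-DMb1 is covered by 2 probe sets that are also annotated to its neighbour H2-DMb2, so their values are given for the pair and credited to neither gene.

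The livers came from 9 female MRL +/+ mice, aged 11 weeks at death, a strain prone to autoimmune disease. Of these, 3 received dichloroacetyl chloride (DCAC) and 3 dichloroacetic anhydride (DCAA), each at 0.2 mmol/kg in 100 µl of corn oil, injected into the abdomen over 6 weeks. The other 3 are labelled as untreated controls, and the design text states that they received the oil alone. MRL +/+ mice do not carry the Fas mutation of the MRL/lpr line, and all groups share this background. Each liver was hybridised to its own Affymetrix array, which gives 1 signal per probe set on a linear scale. Precision is limited here by the number of mice per group. The p-values use 1 spread shared by all groups and drawn toward that of all probe sets, and they cover only these mice. In whole liver, fewer cells of a type and less RNA per cell cannot be told apart.

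The array labelled control 2 went against its tissue label and was kept out of the main comparisons. Umod, the uromodulin gene of the kidney tubule, read 20921 on it and 8.9 to 143 on the other 8 arrays, and Ttr, a plasma protein gene of hepatocytes, read 22.1 against 42541 to 64893. The 8 remaining arrays carried hepatocyte markers at summed signals between 303000 and 422000. RNA and labelling quality can be read from spots at the 3' and 5' ends of pyruvate carboxylase. Their ratio was 2.85 to 3.99 on control 1, control 3, DCAC 1 and DCAC 2, and 6.43 to 12.8 on DCAC 3 and the DCAA arrays.

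MHC class II molecules show peptides from engulfed proteins to CD4 T cells. An alpha chain and a beta chain form the I-A molecule (H2-Aa with H2-Ab1) and the I-E molecule (with H2-Eb1 as the beta chain). Cd74 encodes the invariant chain, which guides the pair to endosomes and blocks its groove. Ctss encodes cathepsin S, a protease that trims the invariant chain, and H2-DMa with H2-DMb1 forms the DM molecule, which exchanges the last fragment for peptide. Ciita is the coactivator that switches on the class II chain, DM and invariant chain genes. In liver the set is made mainly by Kupffer cells, dendritic cells, B cells and, at low level, sinusoidal endothelium. MRL mice carry the H2-k haplotype, and class II genes are among the most polymorphic, so probe sets made from other alleles may read them unevenly.

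The class II promoters hold a shared pair of boxes, called X and Y, at a nearly fixed spacing, and the stretch with that pair is shown for the members that have it. The table of RefSeq promoter windows (GRCm38.p6, the C57BL/6J genome, 250 bases before to 50 after each start) has entries for 5 of the 8 genes: H2-Aa, H2-Eb1, H2-DMa, H2-DMb1 and Ctss. H2-Ab1, Cd74 and Ciita had none. Capitals mark the letters GNAACT of the X box and GATTGG of the Y box, and in Ctss the letters GAAANNGAAA of an interferon response element. The motif letters were chosen with these sequences in view.
H2-Aa, chr17:34287847-34287924, minus strand: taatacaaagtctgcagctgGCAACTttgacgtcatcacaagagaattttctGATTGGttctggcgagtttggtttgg
H2-Eb1, chr17:34305756-34305832, plus strand: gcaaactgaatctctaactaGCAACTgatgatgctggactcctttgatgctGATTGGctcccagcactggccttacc
H2-DMb1, chr17:34153077-34153154, plus strand: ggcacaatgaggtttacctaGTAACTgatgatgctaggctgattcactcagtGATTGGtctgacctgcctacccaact
Ctss, chr3:95526745-95526785, plus strand: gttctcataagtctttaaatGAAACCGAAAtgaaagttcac

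The boxes are 26 bases apart in H2-Aa, 25 in H2-Eb1 and 26 in H2-DMb1, and the pair starts 81, 91 and 94 bases before the transcription start, in that order. H2-Eb2, a class II beta gene that is no member, has the pair too, with 25 bases between. H2-DMb2, H2-Oa and H2-Ob, no members either, were searched as well and lack the pair. Searched on both strands with 20 to 30 bases between the boxes, the pair was present in 67 of 32851 windows, or 0.204%. The Y box letters alone were present in 16.1% of windows, the X box letters in 42.8% and the interferon element in 3.44%. Neither of the 2 windows of H2-DMa holds the pair, and Ctss holds the interferon element and not the pair. These are letter matches in the reference strain and say nothing of binding in MRL mice.

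Of the 15 probe sets 11 were tested, those whose signal exceeded its array's median on 3 or more of the arrays. The 4 left out were 1 of H2-Aa (1443783_x_at), 1 of H2-Ab1 (1425477_x_at) and 2 of Ciita (1421211_a_at and 1447075_at). The H2-Aa one lay under the floor on all arrays, at 0.5 to 15.6 on the 8 compared. The H2-Ab1 one read 384.5 on control 3, 487 on control 2 and 28.2 to 74.5 on the other 7.

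The alpha and beta chains of I-A were highest on control 3. With its brightest probe set (1435290_x_at), H2-Aa read 959.9 on control 1 and 1947 on control 3. With DCAC it read 644, 659 and 646, and with DCAA 706.5, 1040 and 579.9. All 3 DCAC arrays thus lay below both controls, while DCAA 2 lay above control 1. The other tested probe sets of H2-Aa gave the same order of the controls, with 531 and 1594 for 1452431_s_at and 237 and 733 for 1438858_x_at. On 1452431_s_at the 6 treated arrays ran from 350.5 to 495, below both controls. On 1438858_x_at they ran from 189 to 421, and the DCAA arrays, at 280.5, 421 and 419.7, lay above control 1.

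H2-Ab1, the beta chain gene of I-A, read 790.5 on control 1 and 1287 on control 3 with its brighter probe set (1450648_s_at). The DCAC arrays stood at 702, 518.5 and 674 and the DCAA arrays at 622, 870.0 and 603. The DCAC arrays lay below both controls, and DCAA 2 lay above control 1. Its dimmer tested probe set (1451721_a_at) read 276 and 564 in controls, 248, 247 and 120.4 with DCAC, and 144, 205 and 177 with DCAA, all 6 treated below both controls.

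H2-Eb1 and Cd74 were highest on control 3 as well. H2-Eb1, the beta chain gene of I-E, read 1265.5 on control 1 and 2765 on control 3. It read 1325, 1111.5 and 1029 with DCAC and 1000.1, 1488 and 935 with DCAA. Cd74, the invariant chain gene, read 1572 on control 1 and 4308 on control 3. It read 1761, 1432 and 1152.5 with DCAC and 1291, 1610 and 1371 with DCAA. For both genes control 3 was the highest of the 8 arrays, and control 1 fell inside the range of the 6 treated arrays.

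Among the genes of processing and loading, Ctss and 1 probe set of H2-DMa placed control 1 at the other end. Ctss read 1049.9 on control 1, the lowest of the 8 arrays, and 3653 on control 3, the highest. The treated arrays lay between them, at 1958, 1537 and 1165 with DCAC and 1324, 1681 and 2198 with DCAA. H2-DMa had the same arrangement with 1422527_at: 109 on control 1, 336.5 on control 3, 209, 147.5 and 127 with DCAC, and 169.5, 139.8 and 284 with DCAA. Its second probe set, 1459872_x_at, disagreed, and it was above the array median on 8 arrays where 1422527_at was on 3. There both controls, at 214 and 179, lay below all treated arrays, at 216 to 299.4.

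The 2 probe sets shared by H2-DMb1 and H2-DMb2 were dim and uneven. One (1418638_at) read 236 and 259 in controls, 285, 215 and 164 with DCAC, and 19.3, 188 and 133 with DCAA. The other (1449580_s_at) read 175 and 309.8, then 202, 169 and 318, then 54.4, 391 and 316, in the same order of groups. DCAA 1 was the lowest array on both. All 3 DCAA arrays lay below both controls on the first but not on the second, and the DCAC arrays overlapped the controls on both.

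Ciita, the coactivator, was close to the array median. Its tested probe set (1421210_at) read 184.6 and 220.0 in controls, 186, 125 and 129 with DCAC, and 156, 124 and 20.3 with DCAA. DCAA 3 lay under the floor of 67.3 on its array, to which such signals were raised before logs were taken. DCAC 1 lay above control 1, so the DCAC arrays overlapped the controls.

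**Figure D1:**
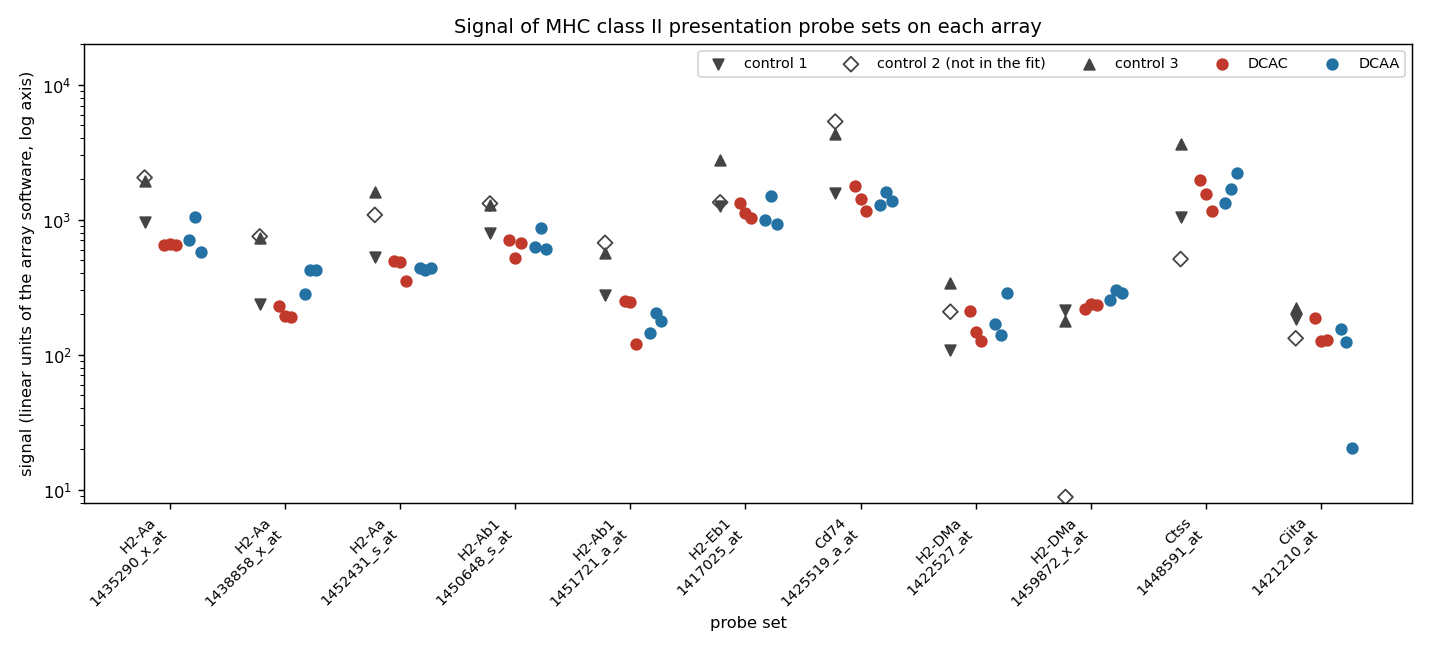
Signal of the 11 tested probe sets (x axis) on each of 9 arrays (y axis, log scale), with 1 point per mouse; triangles are controls 1 and 3, open diamonds control 2, red DCAC and blue DCAA. Control 3 is the highest of the 8 compared arrays for 10 of the 11 probe sets.

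DCAC was compared with corn oil on 8 arrays, 3 against 2, to ask how class II transcripts stand after repeated exposure to the acyl chloride. None of the 11 probe sets passed limma's test at an adjusted p under 0.05 (smallest 0.655), where 0.0326% of the 24531 tested did. At an unadjusted p under 0.05, 7 lay below corn oil and none above, and 2.55% of all tested lay below at that level. With the brightest tested probe set per gene, 4 of the 7 genes lay below at that level. The members' median difference was -0.70 in log2, beside -0.029 over all probe sets tested. For 5 of the 11, the H2-Aa and H2-Ab1 probe sets, every DCAC array was below both controls, as were 12.5% of all tested.

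H2-Aa with 1435290_x_at stood at -1.07 (SE 0.30, 95% interval -1.72 to -0.42, limma adjusted p = 0.655) in log2, a ratio of corn oil to DCAC of 2.10. Its mean signal was 1454 ± 698 (SD, n = 2) in corn oil, 649.7 ± 7.76 (n = 3) with DCAC and 776 ± 238 (n = 3) with DCAA. H2-Aa with 1452431_s_at stood at -1.07 (SE 0.37, limma adjusted p = 0.853) and with 1438858_x_at at -1.04 (SE 0.42, limma adjusted p = 0.947). The beta chain gene H2-Ab1 stood at -0.69 (interval -1.25 to -0.12) and -1.02 (interval -1.98 to -0.063) with its brighter and dimmer probe set. H2-Eb1 stood at -0.70 (interval -1.35 to -0.054) and Cd74 at -0.87 (interval -1.59 to -0.15). Cd74 averaged 2940 ± 1935 (SD, n = 2) in corn oil, 1448 ± 305 (n = 3) with DCAC and 1424 ± 166 (n = 3) with DCAA. Intervals of the other members included 0: Ctss at -0.37, Ciita at -0.48, and H2-DMa at -0.28 and 0.22.

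The size of these differences, and for some the sign, rested on control 3. Without it, the members' median with DCAC was -0.23, and without control 1 it was -1.27. Cd74 stood at -0.14 without control 3 and -1.59 without control 1, and H2-Eb1 at -0.14 and -1.27. H2-Aa (1435290_x_at) stood at -0.56 and -1.58. Without control 3, H2-Aa stood at -0.28 (1452431_s_at) and -0.23 (1438858_x_at). H2-Ab1 then stood at -0.34 (1450648_s_at) and -0.51 (1451721_a_at), and Ciita at -0.36. Ctss, at 0.53, and H2-DMa (1422527_at), also at 0.53, turned positive without control 3. A fit without either control leaves 1 control, which is assumed to vary like the other groups.

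DCAA was compared in the same way, and the controls are the same 2 arrays. None of the 11 passed (smallest limma adjusted p 0.263), where 0.0815% of all tested did. At an unadjusted p under 0.05, 5 lay below corn oil and none above, beside 6.28% of all tested below. With the brightest tested probe set per gene, 3 of the 7 genes lay below at that level. The median was -0.74, beside -0.0081 over all tested. In 3 of 11 every DCAA array was below both controls (H2-Aa with 1452431_s_at, H2-Ab1 with 1451721_a_at, and Ciita), beside 15.6% of all tested. Ciita passed the filter through control 1, control 3 and DCAC 1 and through no DCAA array, so for it this order is partly built in. The members are measured on the same arrays and so are not independent of each other.

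By role, the I-A genes with DCAA ran from -0.18 for H2-Aa (1438858_x_at, interval -1.09 to 0.73) to -1.19 for H2-Ab1 (1451721_a_at, interval -2.14 to -0.23). H2-Aa with 1435290_x_at stood at -0.86 (SE 0.30, limma adjusted p = 0.277). H2-Eb1 stood at -0.74 (interval -1.39 to -0.095) and Cd74 at -0.88 (interval -1.60 to -0.16). Ctss stood at -0.21 (interval -1.10 to 0.69), Ciita at -0.88 (interval -2.07 to 0.30) and H2-DMa at -0.019 and 0.51. Without control 3 the median was -0.18, and H2-Aa (1438858_x_at), at 0.64, Ctss, at 0.69, and H2-DMa (1422527_at), at 0.80, turned positive. Without control 1 the median was -1.11.

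All DCAA arrays have the high 3'/5' ratio and both controls the low one. A fit that blocked on this ratio, as low or high, gave medians of -0.41 for DCAA and -0.67 for DCAC. With DCAA it moved H2-Ab1 (1451721_a_at) from -1.19 to -0.15, H2-Aa (1452431_s_at) from -1.09 to -0.61 and Cd74 from -0.88 to -0.41, while H2-Aa (1435290_x_at) stood at -0.85 and H2-Ab1 (1450648_s_at) at -0.71. The block takes its correction from DCAC 3 against DCAC 1 and 2 and leaves DCAC 3 out of the size of the DCAC difference.

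**Figure D2:**
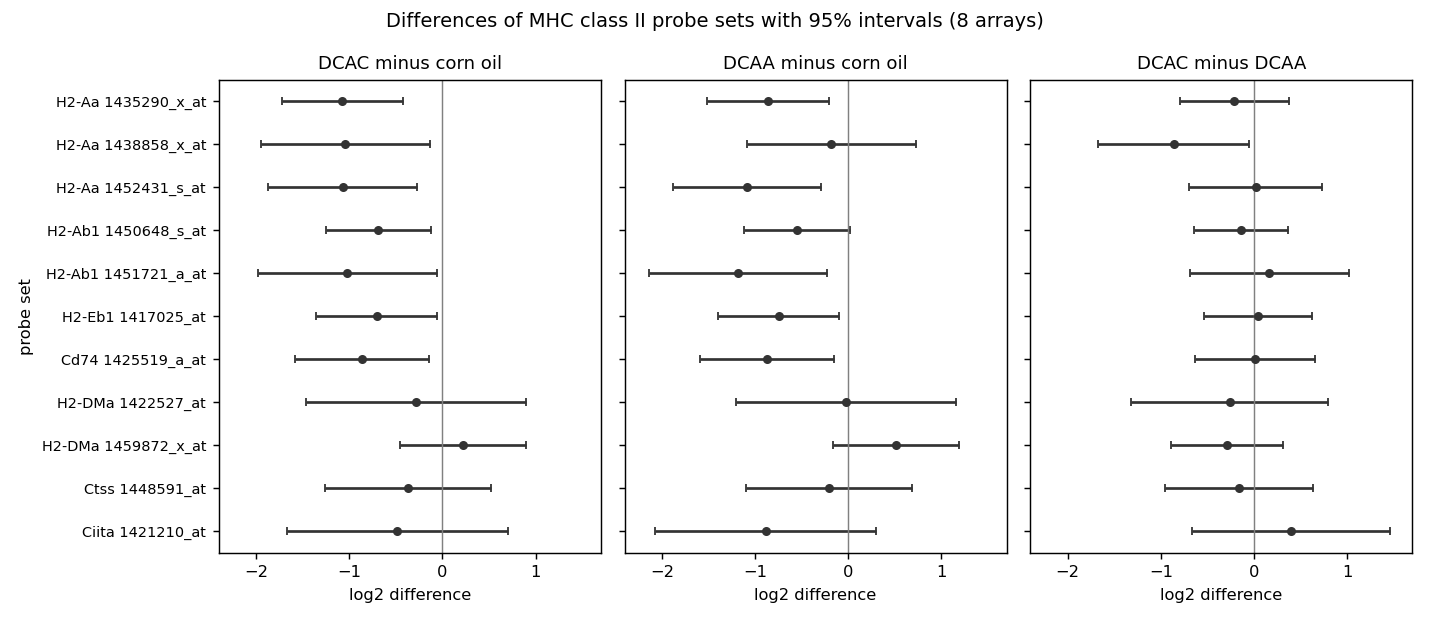
Log2 difference (x axis) of each tested probe set (y axis) in the 3 comparisons, from the fit of 8 arrays; points are estimates and bars 95% intervals. Intervals exclude 0 for 7 probe sets with DCAC, 5 with DCAA and 1 between the compounds, and none passed after adjustment over all probe sets.

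**Figure D3:**
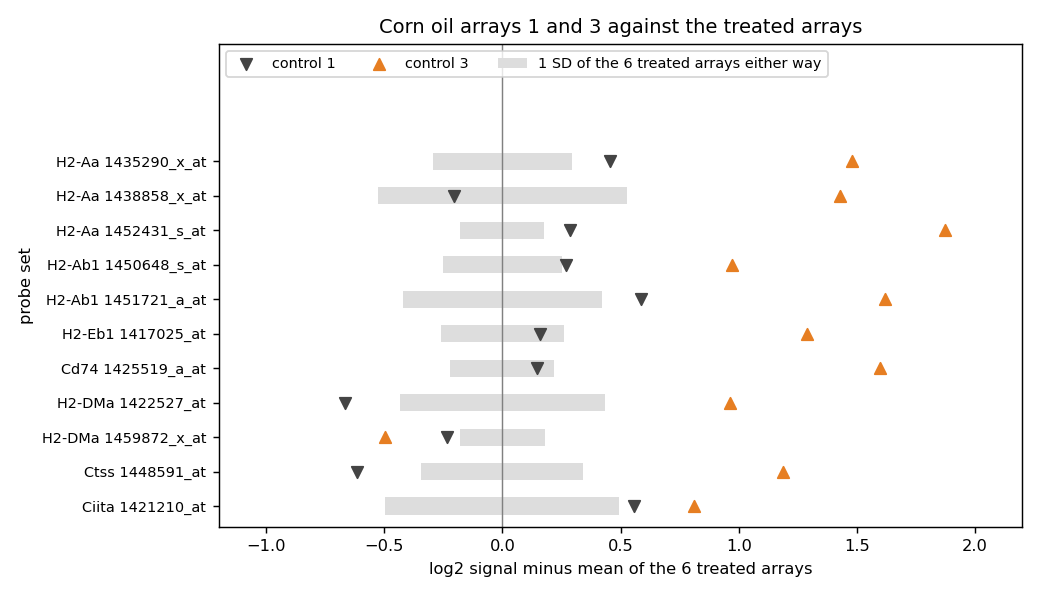
Log2 signal of controls 1 and 3 minus the mean of the 6 treated arrays (x axis) for each tested probe set (y axis); grey bars are 1 SD of the treated arrays either way. Control 3 lies at a median of 1.29 above the treated mean and control 1 at 0.16.

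The chloride and the anhydride were compared directly, at the same molar dose and time, for 11 probe sets of 7 genes. The compounds differ in the group that leaves, chloride in DCAC and dichloroacetate in DCAA. None of the 11 differed past the threshold (smallest limma adjusted p 0.520), where 0.00408% of all tested did, and 10 of 11 intervals included 0. The exception was H2-Aa with 1438858_x_at at -0.86 (interval -1.67 to -0.053, limma adjusted p = 0.520), the 1 member at an unadjusted p under 0.05, beside 4.58% of all tested below at that level. With its other probe sets H2-Aa stood at -0.21 (interval -0.79 to 0.37) and 0.016 (interval -0.70 to 0.73).

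Cd74 differed by 0.0093 between the compounds (interval -0.63 to 0.65) and H2-Eb1 by 0.041 (interval -0.54 to 0.62). H2-Ab1 differed by -0.14 (interval -0.64 to 0.37) with its brighter probe set, Ctss by -0.16 (interval -0.96 to 0.64) and Ciita by 0.40 (interval -0.66 to 1.46). The median over the members was -0.14, beside -0.015 over all probe sets. The half-width of these intervals had a median of 0.71 in log2.

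The 2 corn oil arrays stood far apart in the members. Control 3 exceeded control 1 by a median of 1.13 in log2 over the 11, beside -0.0096 over all tested. It was the highest of the 8 arrays for 10 of the 11, beside 9.53% of all tested. Of these, Ciita and H2-DMa (1422527_at) passed the filter on just 3 arrays, control 3 among them. The difference ran from 1.80 for Ctss, 1.63 for both H2-DMa (1422527_at) and H2-Aa (1438858_x_at), 1.59 for H2-Aa (1452431_s_at) and 1.46 for Cd74, to 0.25 for Ciita and -0.26 for H2-DMa (1459872_x_at). Control 1 lay within the range of the treated arrays for 6 of the 11. With 1 array on each side the difference between the controls has no test. The fit assumes the same spread in every group. Yet the controls lay 1.46 apart for Cd74, where the 6 treated arrays had an SD of 0.22 in log2. For Ctss they lay 1.80 apart, beside an SD of 0.34. Intervals against corn oil may thus be too narrow for such genes.

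Markers of cells that carry class II were set beside the members. Ptprc, the pan-leukocyte gene for CD45, read 421 on control 1, 1735 on control 3 and 479 to 752 on the treated arrays. All 5 leukocyte markers were highest on control 3, with a median difference of 1.66 between the 2 controls. Of 18 Kupffer cell and macrophage markers 15 were highest on control 3, at a median of 1.64, and their summed signal was 14000 on control 1, 45100 on control 3 and 14600 to 23300 on the treated arrays. Marco, a scavenger receptor of macrophages, read 148 on control 1, 1588 on control 3 and 93.7 to 252 on the treated arrays. C1qa, of complement C1q, was 4.82-fold higher on control 3 than on control 1, Aif1 3.67-fold and C1qb 1.90-fold. The macrophage markers not highest on control 3 were Cd163, Fcgr1 and Msr1, with ratios of control 3 to control 1 of 1.23, 1.09 and 0.79. No marker of either list was at the floor on all 8 arrays. Their part in the class II values was not tested.

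B cell and dendritic cell markers gave other orders of the arrays. Of 12 B cell markers 7 were tested, and their median difference between control 3 and control 1 was 0.027, with 1 of 7 highest on control 3. Their summed signal was 1730 and 1970 in controls and 1500 to 2690 with treatment. Of 12 dendritic cell markers 7 were tested, with a median of 0.27 and 2 of 7 highest on control 3. Their sums were 5170 and 6350 in controls and 3850 to 5020 with treatment. Most of each sum was Bst2 alone, at 3382 and 4458 in controls and 2176.5 to 3071 with treatment, so the sums mainly follow that gene. In each of these lists 4 of the 11 markers on the array did not pass the filter on low signals, and none was at the floor on all 8 arrays. Sinusoidal endothelial markers (9 of 10 tested) had a median of 0.21, T cell markers (3 of 10) 0.097, neutrophil markers (7 of 10) -0.31 and hepatocyte markers (9 of 10) 0.025.

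With DCAC against corn oil, Kupffer cell and macrophage markers had a median of -0.44 over 18 and leukocyte markers -0.62 over 5, and with DCAA -0.47 and -0.45. None of them passed, nor did any of the B cell, dendritic cell, T cell, endothelial, neutrophil, hepatocyte or kidney tubule markers in the 3 comparisons. At an unadjusted p under 0.05, 1 macrophage and 1 leukocyte marker lay below corn oil with DCAC, beside 2.55% of all tested. With DCAA 3 and 0 did, beside 6.28%. At that level 3 of 7 neutrophil markers lay above corn oil with DCAC, beside 2.47% of all tested, and 4 with DCAA, beside 6.3%. Prtn3, the neutrophil granule protease proteinase 3, had the lowest p of that list, at 2.77 with DCAC (limma adjusted p = 0.0648) and 2.69 with DCAA (0.0521). It read 222 and 45 in controls, the latter under the floor of 54.3 on control 3. It read 711, 778 and 761 with DCAC, and 590.2, 761 and 784 with DCAA. The median of the neutrophil list was 0.78 with DCAC and 1.03 with DCAA. Ngp, of the same list, stood at -0.11 and -0.031. Cd52, a surface protein of lymphocytes and myeloid cells, stood at -1.32 with DCAC (limma adjusted p = 0.693) and Aif1 at -1.53 (0.946).

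**Figure D4:**
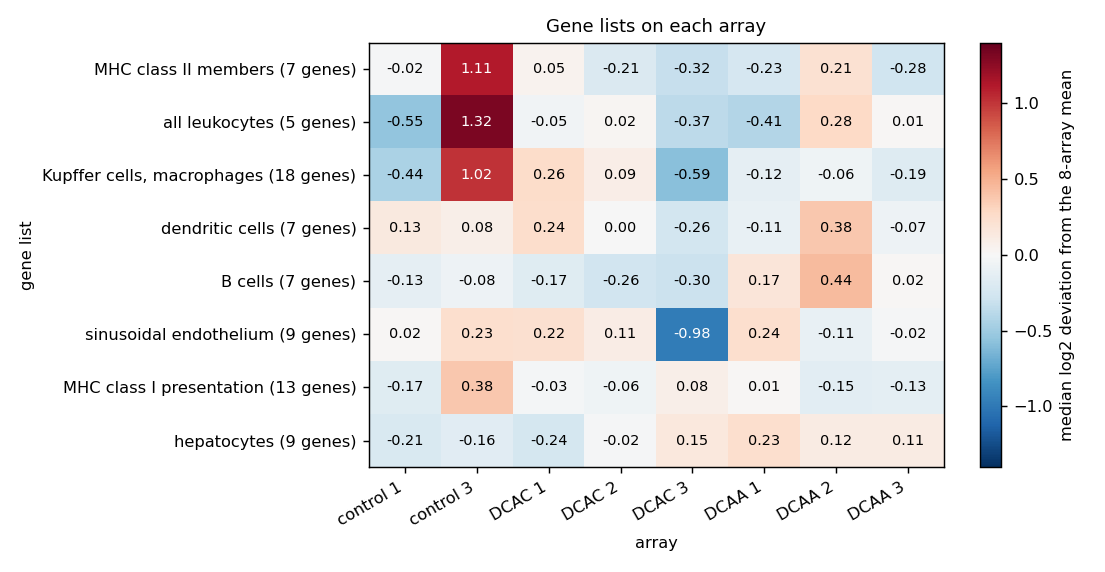
Median log2 deviation from the mean of 8 arrays for 8 gene lists (rows) on each array (columns), in blue where lower and red where higher. The class II members, leukocyte markers and macrophage markers stand at 1.11, 1.32 and 1.02 on control 3, and B cell markers, dim and split in direction, at -0.08.

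Other genes of the pathway were counted from lists. Of 14 further class II and loading genes 8 were tested and none passed in any comparison; the median was 0.19 with DCAC and -0.13 with DCAA. At an unadjusted p under 0.05 none differed with DCAC and 1, Lgmn, lay below corn oil with DCAA, beside 6.28% of all tested. The endosomal proteases cathepsin L (Ctsl), cathepsin B (Ctsb) and cathepsin D (Ctsd) stood at 0.21, 0.25 and 0.23 with DCAC, and legumain (Lgmn), an endosomal protease as well, at -0.32. Lgmn was 2.76-fold higher on control 3 than on control 1, and Ctsl 0.94-fold. H2-Ea, the alpha chain gene of I-E, which the reference strain has as a pseudogene, read 61.6 on control 1 and 305 on control 3. It read 175, 148 and 290 with DCAC and 145, 81.2 and 77.0 with DCAA, dim on every array. It and Ifi30, a thiol reductase of endosomes that was 2.41-fold higher on control 3 than on control 1, were named after their values were seen.

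The regulators of class II promoters differed between the controls in both directions. Of 16 genes of class II transcription 12 were tested, none passed, and the median difference between control 3 and control 1 was 0.045, with 1 of 12 highest on control 3. Irf1, an interferon-induced factor, stood at 0.36 with DCAC (SE 0.16, limma adjusted p = 0.967) and 0.41 with DCAA (0.323), with signals of 1953 to 2407 on the 6 treated arrays and 1539 and 1737 in controls. The subunits of the RFX complex, which binds the X box, stood with DCAC at 0.58 (Rfxank), -0.82 (Rfxap) and -0.22 (Rfx5). Nfyc, a subunit of the factor that binds the Y box, stood at -0.19.

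MHC class I presentation is the route for peptides from inside the cell. Of 16 genes 13 were tested, none passed, and the medians were -0.076 with DCAC and -0.18 with DCAA. At an unadjusted p under 0.05, 1 lay below corn oil with DCAC and none above, beside 2.55% and 2.47% of all tested. With DCAA 3 lay below and 1 above, beside 6.28% and 6.3%. Tap1, at -0.96 with DCAA (limma adjusted p = 0.212), and H2-D1, at -0.61 (0.190), were named after their values were seen. Control 3 exceeded control 1 by a median of 0.40, with 8 of 13 highest on control 3. Nlrc5, the class I counterpart of Ciita, stood at -0.58 with DCAC (limma adjusted p = 0.919) and the immunoproteasome subunit Psmb8 at -0.33. H2-K1, a class I heavy chain whose reads on such probe sets cannot be parted from its close relatives, stood at -0.26. Pdia3, a chaperone of class I loading, stood at 0.24. Of 7 costimulation genes 5 were tested and none passed. Cd40 stood at 0.33 with DCAC, Cd80 at -0.19, Icosl at -0.11 and Cd83 at 0.085.

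The genes most like the members across the 8 arrays were ranked by Pearson's r with the mean scaled profile of the 7 member genes, among 8380 genes with an SD of at least 0.3. The first 10 were Irgm1 (r = 0.952), Cotl1, Sgk1, Tuba1a, Ifit1, Il1f8, Evl, Ptprc, Tmsb10 and Irf7 (r = 0.899). Irgm1 is an interferon-induced GTPase, and Ifit1 and Irf7 are interferon-induced too. How common such genes are among the 8380 was not counted. Irgm1 read 1061 on control 1, 1870 on control 3, 1018, 698 and 706 with DCAC, and 892, 1236 and 928 with DCAA. All 10 were higher on control 3 than on control 1, by 1.35-fold (Tuba1a) to 4.12-fold (Ptprc). Without control 3, r was 0.890 for Irgm1 and 0.536 for Ptprc. A single array sets much of this likeness: ranked again without control 3, 1 of the 10 stayed among the first 10, 4 without DCAA 2, and 5 without DCAC 2 or without DCAA 3.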

How the data were processed

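The authors deposited 1 linear intensity for each probe set and array. GCOS, Affymetrix's own software, produced it, per the submitters' processing notes, and its version is not given in the sources used here. Each array's mean without the top and bottom 2% was 500.0. Probe sets were named from the platform annotation, with 34945 of 45037 carrying 1 symbol, and 64 control probe sets were left out. Each array's 25th percentile served as a floor for its signals before log2 was taken. In R 4.3.3, limma 3.58.1 (lmFit, then eBayes with an intensity trend) fitted all groups in 1 model of 8 arrays, with Benjamini-Hochberg adjustment over 24531 probe sets and a threshold of 0.05. The fit was tested on simulated data.

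Members and lists were chosen with earlier results of these data known, as was leaving out control 2. All members are named, up to 4 genes per further pathway list by p with DCAC, and 10 genes by likeness. Rfx5, H2-Ea, Ifi30, Tap1 and H2-D1 were named outside this rule. In lists the brightest tested probe set stands for a gene. Same-numbered arrays deviated together at r of -0.0408 to 0.0275 over 7 pairs, and were treated as unpaired. No 2 of the 9 arrays were identical.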

Additional observations from a re-analysis of the deposited data

Results flagged for a closer look

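Control 2, the array with kidney transcripts, was in no comparison and had class II signals above both other controls for 5 of the 11 tested probe sets. Cd74 read 5322.6 on it, H2-Aa 2048.7 (1435290_x_at) and 750.6 (1438858_x_at), and H2-Ab1 1316.1 (1450648_s_at) and 672.5 (1451721_a_at). H2-Eb1 read 1342 there, between control 1 and control 3, and Ctss read 509.9, below all 8 other arrays. The summed signal of kidney tubule markers was 128000 on control 2 and 1280 to 2190 on the others, and its part in these values was not tested.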

How the results depend on the processing

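None of the 11 probe sets passed in any of the 3 comparisons under the 22 alternatives, with a smallest limma adjusted p of 0.0683. With 1 array left out at a time, the members' median lay between -1.27 and -0.23 with DCAC and between -1.11 and -0.18 with DCAA, the ends being control 1 and control 3 left out. Calls over all probe sets with DCAC, DCAA and between the compounds numbered 8, 20 and 1. They were 0, 0 and 0 with all 9 arrays or without the intensity trend, 1, 4 and 0 without the filter, 1, 14 and 1 with robust eBayes, 2, 0 and 3 with the ratio block, 12, 9 and 0 with a common median, and 30, 141 and 1 with array weights. With 1 array left out they ran from 2 to 14, 3 to 92 and 0 to 2. With the replicate block the medians were -0.80 and -0.84, and the block changed no call among the 11; over all probe sets it gave 7, 17 and 1 calls. Of 705 differences of single probe sets 37 changed sign, 24 of them between the compounds, where the values lie near 0; the cause was not tested.

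With all 9 arrays Ctss stood at 0.28 with DCAC and 0.44 with DCAA. With the replicate block H2-DMa (1422527_at) stood at 0.11 with DCAA, and at 0.45 when arrays were blocked by low or high 3'/5' ratio, where Ctss stood at 0.37. Between the compounds, blocking by that ratio gave -0.12 for H2-Eb1, -0.30 for Cd74, -0.53 for H2-Ab1 (1451721_a_at) and -0.31 for H2-Aa (1452431_s_at). Quantile normalization gave -0.039 for Cd74, array weights -0.0066 for Cd74 and -0.099 for H2-Eb1, and a common median 0.026 for Ctss and 0.050 for H2-Ab1 (1450648_s_at).

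Leaving out each array, H2-DMa (1422527_at) ran from -1.09 to 0.53 and Ctss from -1.27 to 0.53 with DCAC. With DCAA the ranges were -0.83 to 0.80, -1.11 to 0.69, and -1.0 to 0.64 for H2-Aa (1438858_x_at). Between the compounds they were -0.087 to 0.25 for H2-Eb1, -0.14 to 0.16 for Cd74, -0.34 to 0.031 for Ctss, -0.48 to 0.033 for H2-DMa (1422527_at), -0.40 to 0.022 and -0.073 to 0.18 for H2-Aa (1435290_x_at and 1452431_s_at), and -0.23 to 0.033 and -0.0090 to 0.51 for H2-Ab1 (1450648_s_at and 1451721_a_at).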
